A study of Mus musculus with 14 samples.

Results

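Naive pluripotency genes are the transcription factors and linked markers that set mouse embryonic stem (ES) cells apart from later, primed pluripotent cells. The 10 genes described here were picked by symbol: *Klf2*, *Klf4*, *Klf5*, *Esrrb*, *Tfcp2l1*, *Zfp42*, *Nr0b1*, *Tbx3*, *Prdm14* and *Dppa3*. They are 10 of the 22471 genes with a symbol in the RNA-seq tables, and each had 1 locus with a value in every library. Their levels are FPKM values (fragments scaled to transcript length and to library size), a scale on which the levels of different genes can be compared.

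The study asked what TAF9B, a subunit of the transcription machinery related to TAF9, does while ES cells become motor neurons. Poly-A RNA was sequenced from ES cells and from embryoid bodies (EBs, floating aggregates of differentiating cells) after 2, 4 and 6 days with retinoic acid and the smoothened agonist SAG, each as 1 wild type (WT) library and 1 *Taf9b* knockout (KO) library. The cultured WT cells were a JM8 clone and the KO cells the Taf9b_BG10 clone, so each genotype is 1 clone on a C57BL/6 background, and in the KO line a *LacZ-Neo* cassette stands in place of the protein-coding exons of the X-linked gene. ES cells were kept with LIF and serum on inactivated embryonic fibroblasts. Newborn C57BL/6 mice gave 1 WT and 1 KO library of lumbar spinal column, which holds the cord together with the vertebrae around it, and 1 WT library of spinal cord. The tissue samples carry the same clone names in their labels as the cultured cells. A TAF9B and an RNA polymerase II (POL2) peak list came from WT EBs of 8 days made from a motor neuron reporter line.

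*Taf9b* itself went against the labels in culture. It was at 0.537 FPKM in the WT and 3.06 FPKM in the KO library of ES cells, and it was also higher in the library labelled KO at day 2 (0.516 against 4.08 FPKM), day 4 (1.96 against 4.27) and day 6 (1.37 against 4.01). In spinal column it was at 6.65 FPKM in the WT and 3.31 FPKM in the KO library. FPKM is taken over the whole transcript, untranslated parts included, so these values do not say whether coding exons were read. The study also measured *Taf9b* by qRT-PCR and western blot, and those data were not analysed here. Every direction below therefore follows the label of the library, and WT and KO mean the libraries labelled so. All conditions rest on 1 library, so no spread between replicates and no test exist for any difference, and the depth behind the FPKM values is unknown. A gene was tested where either of the libraries compared gave it more than 1 FPKM, and it was called higher or lower where they differed more than 2-fold.

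Naive pluripotency is held by a web of factors that sustain each other and that lies downstream of LIF and STAT3 signalling. Within it *Klf2*, *Klf4* and *Klf5* encode zinc finger factors of the Krüppel family, *Esrrb* and *Nr0b1* orphan nuclear receptors, *Tfcp2l1* a grainyhead-related factor, *Tbx3* a T-box factor and *Prdm14* a repressor of FGF signalling and of DNA methylation. *Zfp42* (also named Rex1) and *Dppa3* (also named Stella), the latter a protector of the maternal genome from demethylation, are used as markers of the state more than as its drivers. When ES cells leave the state these genes are shut off, whereas *Sox2* stays on in neural progenitors.

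TAF9B belongs to the machinery that acts at promoters. TAF9B peaks lay at the transcription start site (TSS) of 2 of the 10 genes, *Klf5* and *Tbx3*, where 20.8% of all genes have one, and inside *Klf4*, and the bases under these peaks are shown for that reason. They come from the mm9 genome, 5′ to 3′ on the strand of the gene. For *Klf5* (chr14:99697656-99697909, plus strand) and *Tbx3* (chr5:120120548-120120677, plus strand) the bases shown run from the start of the peak to the base before the TSS. For *Klf4* (chr4:55543128-55543427, minus strand) they are the central 300 bases of the peak, which lies wholly in a coding exon. Capitals mark matches on either strand to the letters searched for, and among these 3 sequences only CCAAT was matched, in 2 places of *Klf5*, once as its reverse complement ATTGG.
Klf5 peak: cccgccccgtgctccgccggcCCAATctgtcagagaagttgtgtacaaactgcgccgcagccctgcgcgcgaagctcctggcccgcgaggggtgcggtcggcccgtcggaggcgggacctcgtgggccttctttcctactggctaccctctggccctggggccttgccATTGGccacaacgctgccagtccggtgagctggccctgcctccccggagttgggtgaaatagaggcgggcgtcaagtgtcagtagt
Tbx3 peak: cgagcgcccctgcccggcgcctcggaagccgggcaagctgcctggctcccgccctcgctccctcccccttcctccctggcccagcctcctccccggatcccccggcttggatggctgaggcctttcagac
Klf4 peak: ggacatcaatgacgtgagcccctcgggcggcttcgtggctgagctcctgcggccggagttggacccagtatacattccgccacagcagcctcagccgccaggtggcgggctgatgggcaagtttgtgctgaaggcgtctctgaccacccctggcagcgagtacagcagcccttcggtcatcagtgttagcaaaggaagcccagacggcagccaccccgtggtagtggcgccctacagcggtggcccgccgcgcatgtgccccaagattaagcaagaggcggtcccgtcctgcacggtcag

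Promoters were available from RefSeq (build GRCm38.p6, 250 bases before to 50 after the start) for 6 genes in 7 windows, *Esrrb* having 2 windows. *Klf5*, *Tbx3*, *Prdm14* and *Dppa3* had no entry. The letters searched for on both strands were TCAAGGTCA (bound by ESRRB), ATTTGCAT (the octamer bound by POU5F1), TTCCNGGAA (STAT3), GGGTGTGG and GGGCGTGG (Krüppel factors), ACAATGG (SOX factors), TATAAA and CCAAT, none of which overlapped in the windows of the 6 genes. *Zfp42* held the octamer 186 bases and GGGTGTGG 75 bases before the start, letters present in 1.74% and 3.56% of all 32851 promoter windows. *Tfcp2l1* held GGGCGTGG at 61 and at 47 bases before the start (5.33% of all windows hold it) and TATAAA at 28 bases before. *Nr0b1* held TATAAA 32 bases before the start, and 13.6% of all windows hold these letters. No window of the 6 genes held TCAAGGTCA or TTCCNGGAA, which are in 0.423% and 1.15% of all windows. ACAATGG was in 1 window of *Esrrb*, 31 bases after the start, and CCAAT in the other *Esrrb* window and in *Zfp42*, with shares of 3.66% and 37.4% of all windows. The 250 bases before the start are shown for *Zfp42*, *Tfcp2l1* and *Nr0b1*, which hold the octamer, Krüppel factor or TATAAA letters there, with every match in capitals on the strand of the gene, where GGGTGTGG and GGGCGTGG read CCACACCC and CCACGCCC. They lie at chr8:43307010-43307259 (minus strand) for *Zfp42*, chr1:118627695-118627944 (plus strand) for *Tfcp2l1* and chrX:86191525-86191774 (plus strand) for *Nr0b1*. A match is a description of these letters and not of a bound site.
Zfp42 promoter: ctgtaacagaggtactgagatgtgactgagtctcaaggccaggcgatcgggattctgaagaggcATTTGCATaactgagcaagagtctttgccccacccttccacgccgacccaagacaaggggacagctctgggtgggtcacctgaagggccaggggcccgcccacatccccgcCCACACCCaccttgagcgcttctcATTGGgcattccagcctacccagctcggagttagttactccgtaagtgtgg
Tfcp2l1 promoter: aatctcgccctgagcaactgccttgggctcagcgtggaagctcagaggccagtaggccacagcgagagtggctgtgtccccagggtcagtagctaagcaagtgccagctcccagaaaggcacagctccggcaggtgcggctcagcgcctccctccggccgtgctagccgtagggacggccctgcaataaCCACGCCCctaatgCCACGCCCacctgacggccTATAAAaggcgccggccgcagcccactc
Nr0b1 promoter: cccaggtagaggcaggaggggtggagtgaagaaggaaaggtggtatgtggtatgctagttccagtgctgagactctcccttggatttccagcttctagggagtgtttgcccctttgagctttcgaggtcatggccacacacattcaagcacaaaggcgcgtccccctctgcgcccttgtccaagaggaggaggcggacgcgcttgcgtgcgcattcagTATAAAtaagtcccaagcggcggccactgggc

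In undifferentiated ES cells all 10 genes were expressed, and none differed more than 2-fold between KO and WT. *Esrrb* had the highest level, at 135 FPKM in WT and 119 FPKM in KO ES cells, and *Prdm14* the lowest, at 6.35 and 4.63 FPKM. *Klf4* (99.4 and 90.3 FPKM), *Zfp42* (80.6 and 43.3), *Klf5* (76.1 and 72.0), *Klf2* (70.8 and 65.0), *Dppa3* (69.7 and 81.8) and *Tfcp2l1* (66.4 and 54.4) followed in WT, then *Nr0b1* (40.6 and 44.4) and *Tbx3* (17.8 and 14.0), and in KO *Nr0b1* stood just above *Zfp42*. With 1 library per point, neighbours in this order have no spread against which they could be told apart. Summed over the 10 genes the level was 662 FPKM in WT and 589 FPKM in KO ES cells, and the median log2 ratio KO over WT was -0.16.

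None of the 10 was past 2-fold in either direction between KO and WT ES cells, where 0.465% of all genes above 1 FPKM were higher and 0.575% lower. The gene farthest from equality was *Zfp42*, a zinc finger gene of the YY1 family, at 0.537 of its WT level (log2 ratio -0.90), a ratio below that of all but 0.643% of the genes tested. *Prdm14* (-0.46) and *Tbx3* (-0.34) also lay under the 5th percentile of all genes, which was -0.30, and *Tfcp2l1* (-0.29) just above it. *Dppa3*, at a log2 ratio of 0.23, and *Nr0b1*, at 0.13, were the only members above 0. The plot of levels over time shows each gene from here to day 6.

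**Figure D1:**
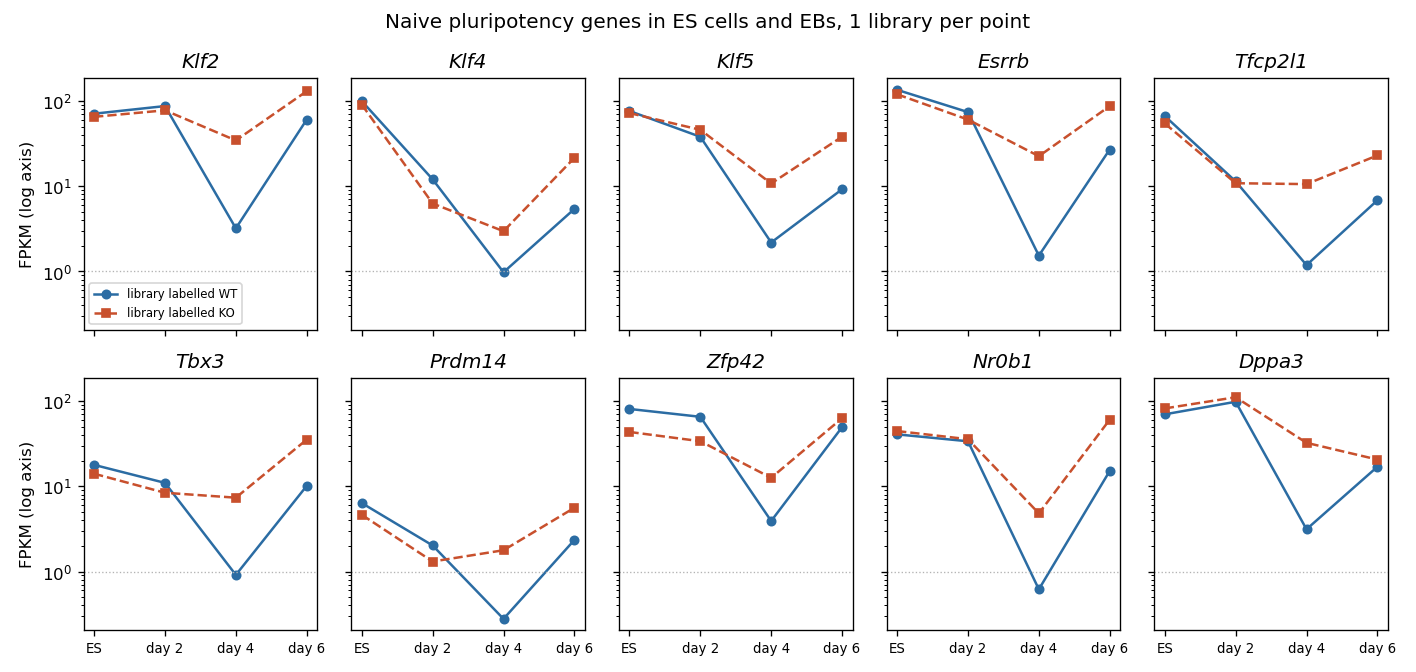
FPKM (log axis) of each of the 10 naive pluripotency genes in ES cells and in EBs of day 2, 4 and 6, with circles for libraries labelled WT, squares for libraries labelled KO and a dotted line at 1 FPKM. All 10 genes were lower in WT EBs of day 4 than in any other WT library shown, and all 10 lay below the KO library there.

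After 2 days of differentiation the 10 genes lay on a continuous range, from little of the ES cell level left to more than it. In WT EBs *Klf4* was down to 12.1% of its ES cell level (12.0 FPKM), *Tfcp2l1* to 17.1% (11.4 FPKM), *Prdm14* to 31.8% (2.02 FPKM) and *Klf5* to 49.8% (37.9 FPKM), the last just past 2-fold and within it once 1 FPKM was added to both values. *Esrrb* kept 54.8%, *Tbx3* 61.5%, *Zfp42* 80.9% and *Nr0b1* 83.0% of the ES cell level. *Klf2*, at 86.9 FPKM, and *Dppa3*, at 97.9 FPKM, stood at 123% and 140% of it. Thus 4 of the 10 were more than 2-fold lower than in WT ES cells, where 7.93% of all genes were, and none was more than 2-fold higher (5.10% of all genes). The authors scaled the tables of different days apart from each other, which applies to every comparison between days.

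KO EBs of day 2 showed nearly the same order. *Klf4* was at 6.93%, *Tfcp2l1* at 19.9% and *Prdm14* at 28.3% of the level in KO ES cells, and these were the 3 genes called lower (8.35% of all genes). *Klf5* kept 63.7%, *Esrrb* 50.6%, *Tbx3* 59.8%, *Zfp42* 77.9% and *Nr0b1* 80.2%, while *Klf2* (119%) and *Dppa3* (135%) were again above the ES cell level. For *Klf2* this turned with each library scaled to the same sum of FPKM, to a log2 ratio of day 2 over ES cells of -0.04 in WT and -0.07 in KO. Between the KO and WT libraries of day 2 no member passed 2-fold (1.16% of all genes were higher, 1.33% lower), and the median log2 ratio was -0.23. *Zfp42* (33.7 FPKM in KO, 65.2 in WT) and *Klf4* (6.26 in KO, 12.0 in WT) came nearest, with log2 ratios of -0.95 and -0.94, followed by *Prdm14* with -0.63. *Klf5* had the highest ratio, at 0.27.

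At day 4 all 10 genes were nearly absent from WT EBs. None exceeded 3.91 FPKM (*Zfp42*), and 4 were not above 1 FPKM: *Klf4* at 0.979, *Tbx3* at 0.913, *Nr0b1* at 0.619 and *Prdm14* at 0.279 FPKM. The level left relative to WT ES cells ran from 0.985% for *Klf4* and 1.14% for *Esrrb* to 5.13% for *Tbx3*, and the 10 genes together fell from 432 FPKM at day 2 to 17.9 FPKM. All 10 were called lower than in ES cells, as were 15.4% of all genes, and all 10 were called lower than at day 2 (13.7% of all genes). In bulk RNA a smaller share of cells that express a gene and less RNA of it per cell cannot be told apart.

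KO EBs of day 4 kept more of every one of the 10. *Klf2* was at 34.4 FPKM, *Dppa3* at 32.3 and *Esrrb* at 22.5, against 3.20, 3.13 and 1.53 FPKM in WT. *Zfp42* was at 12.6, *Klf5* at 10.8, *Tfcp2l1* at 10.6 and *Tbx3* at 7.35 FPKM, while *Nr0b1* (4.81), *Klf4* (2.97) and *Prdm14* (1.78 FPKM) were lowest. Relative to KO ES cells 8 of the 10 were more than 2-fold lower (9.76% of all genes), and the exceptions *Klf2* and *Tbx3* kept 52.9% and 52.4%. These exceptions were called lower too with log2 ratios centred on the median, or with each library scaled to the same sum of FPKM. *Klf4* was left at 3.28% and *Nr0b1* at 10.8%. *Prdm14* was higher than at day 2, where it had been at 1.31 FPKM, and *Tfcp2l1* was level with day 2 (10.8 FPKM).

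**Figure D2:**
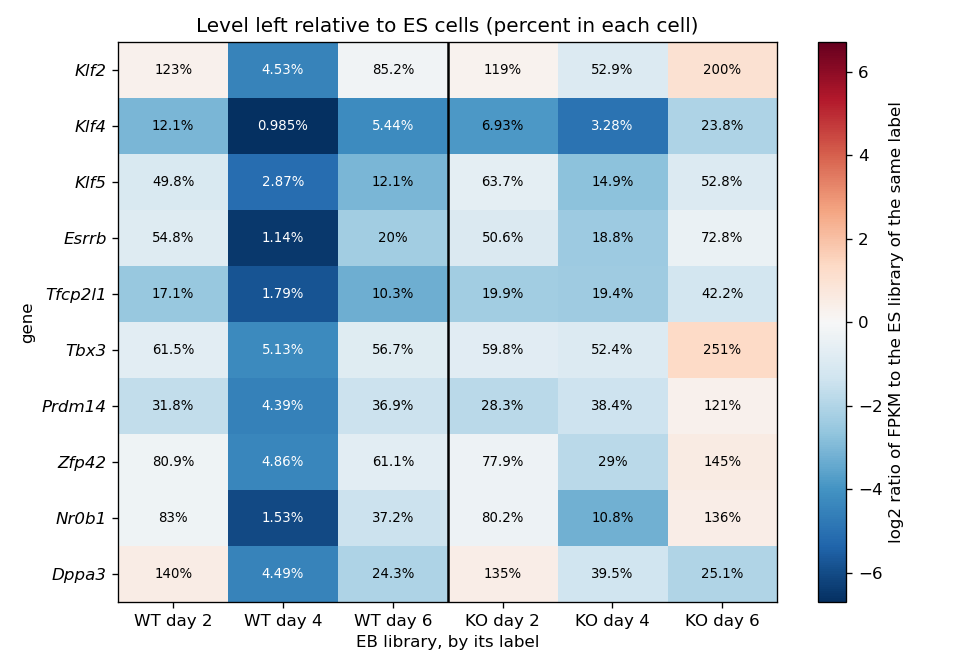
Level of each gene in EBs as a percent of its FPKM in the ES cell library of the same label, with the log2 ratio as colour (blue below, red above the ES cell level) and the labels WT and KO on the left and right of the black line. The WT day 4 column holds values from 0.985% to 5.13% and the KO day 4 column values from 3.28% to 52.9%.

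All 10 genes were thus more than 2-fold higher in KO than in WT EBs of day 4, in a pair of libraries in which 12.1% of all genes above 1 FPKM were higher and 4.28% lower. The log2 ratios ran from 1.60 for *Klf4* and 1.68 for *Zfp42* over 2.30 for *Klf5*, 2.67 for *Prdm14*, 2.96 for *Nr0b1*, 3.01 for *Tbx3*, 3.15 for *Tfcp2l1*, 3.37 for *Dppa3* and 3.42 for *Klf2* to 3.87 for *Esrrb*, a 14.7-fold difference. Their median was 2.98, beside a median of -0.03 over all genes tested. Of the 10, 4 (*Klf4*, *Nr0b1*, *Tbx3* and *Prdm14*) were above 1 FPKM in the KO library alone, so that they entered the comparison through the library in which they were high. Counting only genes above 1 FPKM in both libraries leaves 6 members, each of them called higher. The share of all genes was not counted under that filter. From day 2 to day 4, 7 of the 10 members were called lower in KO EBs (7.71% of all genes), the others being *Prdm14*, *Tfcp2l1* and *Tbx3*.

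Between day 4 and day 6 the genes came back. In WT EBs all 10 rose more than 2-fold from day 4 to day 6 (17.0% of all genes did), from 17.9 to 202 FPKM in sum. *Nr0b1* went from 0.619 to 15.1 FPKM, a 24.4-fold rise, *Klf2* from 3.20 to 60.3, *Esrrb* from 1.53 to 26.9 and *Zfp42* from 3.91 to 49.2 FPKM. *Klf5* went from 2.19 to 9.19 FPKM, the smallest ratio of the 10. *Klf4*, *Nr0b1*, *Tbx3* and *Prdm14*, not above 1 FPKM at day 4, entered this comparison through day 6, where they were high. At day 6 the WT library held 85.2% of the ES cell level of *Klf2*, 61.1% of *Zfp42* and 56.7% of *Tbx3*, but 5.44% of *Klf4*, 10.3% of *Tfcp2l1* and 12.1% of *Klf5*, and 7 of the 10 were still called lower than in ES cells (15.0% of all genes).

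In KO EBs 9 of the 10 rose more than 2-fold from day 4 to day 6 (12.4% of all genes did), and *Dppa3* went the other way, from 32.3 to 20.6 FPKM. At day 6, 5 genes stood above their level in KO ES cells: *Tbx3* at 251% (35.2 FPKM), *Klf2* at 200% (130 FPKM), *Zfp42* at 145% (62.7 FPKM), *Nr0b1* at 136% (60.3 FPKM) and *Prdm14* at 121% (5.59 FPKM). *Tbx3* alone passed 2-fold in this direction (16.9% of all genes). With each library scaled to the same sum of FPKM, *Prdm14* was no longer above its level in KO ES cells. *Klf4*, *Dppa3* and *Tfcp2l1* were called lower than in KO ES cells (9.52% of all genes), at 23.8%, 25.1% and 42.2%.

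In the pair of day 6, 8 of the 10 genes were more than 2-fold higher in KO EBs (10.5% of all genes were higher and 9.86% lower). With 1 FPKM added to both values 7 were, *Prdm14* being at a log2 ratio of 0.98. *Klf5*, at 38.0 against 9.19 FPKM in WT, had the largest log2 ratio, 2.05, and *Nr0b1* (60.3 against 15.1 FPKM, 2.00), *Klf4* (21.5 against 5.41, 1.99), *Tbx3* (35.2 against 10.1, 1.80), *Tfcp2l1* (22.9 against 6.83, 1.75), *Esrrb* (86.9 against 26.9, 1.69), *Prdm14* (5.59 against 2.34, 1.25) and *Klf2* (130 against 60.3, 1.11) followed. The markers *Zfp42*, at 62.7 against 49.2 FPKM (0.35), and *Dppa3*, at 20.6 against 16.9 FPKM (0.28), were within 2-fold. The median of the 10 was 1.72, beside a median near 0 over all genes. All 10 were called higher at day 4, so the 8 called at day 6 were higher on both days. Of the genes above 1 FPKM in both pairs, 5.98% were. Among these 8, *Klf4*, *Nr0b1*, *Tbx3* and *Prdm14* were above 1 FPKM at day 4 in the KO library alone.

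**Figure D3:**
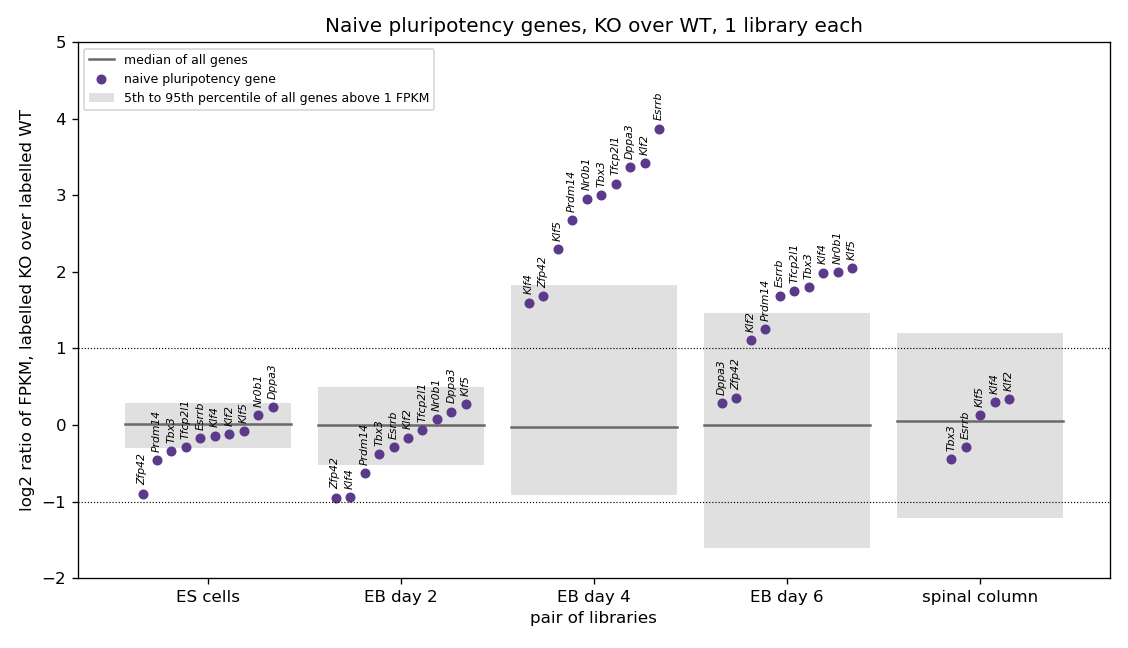
Log2 ratio of FPKM, library labelled KO over library labelled WT, for each naive pluripotency gene that either library of the pair gave more than 1 FPKM, over grey bars from the 5th to the 95th percentile of all genes so filtered and with dotted lines at 2-fold. At day 4 the 10 points lie between 1.60 and 3.87, in ES cells and at day 2 all points lie within 2-fold, and in spinal column 5 points are left.

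Some, but not all, other genes of the undifferentiated state were also more than 2-fold higher in KO than in WT EBs of day 4. Of the 4 core factors, *Pou5f1* was at 99.1 FPKM in KO against 19.9 FPKM in WT and *Nanog* at 42.9 against 3.77 FPKM, while *Sox2* (85.7 against 83.7) and *Sall4* (49.1 against 32.5) were within 2-fold. In WT EBs of day 4 *Pou5f1* and *Nanog* were lower than in every other WT culture library, but *Sox2* still had 83.7 of the 233 FPKM it had in ES cells. At day 6 *Pou5f1* (543 against 198 FPKM) and *Nanog* (172 against 62.5) were again more than 2-fold higher in KO, and *Sox2* (95.7 against 73.0) and *Sall4* (63.7 against 34.2) were not. In a list of 17 further genes of the undifferentiated state, 14 of the 16 tested were higher at day 4 (median log2 ratio 2.91, from 0.09 for *Lin28a* to 4.75 for *Tdgf1*) and 15 of 17 at day 6 (median 1.58, from 0.29 for *Lin28a* to 2.69 for *Tdgf1*), 13 of them on both days. Those on both days include *Dppa2*, *Fgf4*, *Utf1* and *Dnmt3l*. At day 4 *Nr5a2*, *Tcl1*, *Fgf4* and *Tdgf1* were above 1 FPKM in the KO library alone. None of the 17 was lower on either day.

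The genes that carry the LIF and BMP signals of ES cell culture showed no such move as a list. At day 4, 2 of 14 were higher in KO and 2 lower, with a median log2 ratio of 0.13. *Lif*, the ligand, was at 3.80 FPKM in KO and 1.92 log2 units lower in WT, and *Stat3*, the transcription factor that relays it, at 9.67 against 3.93 FPKM, whereas the receptor gene *Lifr* was at 2.37 against 2.21 FPKM. *Id1* (23.3 against 69.0 FPKM) and *Id3* (92.8 against 273 FPKM), targets of BMP signalling that restrain differentiation, were lower in KO, with log2 ratios of -1.57 and -1.56. At day 6 *Lif* alone passed 2-fold (5.81 against 2.39 FPKM), and the median was 0.20. *Id2* had the lowest ratio then, -0.77.

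Genes of formative and primed pluripotency, the states that follow the naive one, came up at day 2 under both labels. In WT 9 of 11 were more than 2-fold higher than in ES cells (5.10% of all genes). In KO 8 of 11 were (705 of 12054 genes). *Fgf5*, a ligand made by primed cells, was at 11.3 FPKM in WT and 9.27 FPKM in KO EBs of day 2, from 1.71 and 0.721 FPKM in ES cells. In KO it entered this comparison through day 2. *Otx2*, a factor that leads cells out of the naive state, went from 2.88 to 44.4 FPKM in WT and from 1.71 to 30.0 FPKM in KO. At day 4 *Otx2* was at 0.0950 FPKM in WT and 0.257 FPKM in KO, under the 1 FPKM limit in both. Of the 9 genes of this list tested at day 4, 3 were higher in KO and 1 lower, the lower one being *Sox3*, a neural SOX factor as well (41.2 against 150 FPKM, log2 ratio -1.87). The highest was the tight junction gene *Cldn6* (106 against 23.2 FPKM, 2.19). At day 6, 4 of 10 were higher and 3 lower, with *Lef1* highest (1.37) and *Sox3* lowest (-3.08). *Lef1* on both days and *Zic5* at day 6 were above 1 FPKM in the KO library alone.

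Markers of some other cell types were also higher in the KO than in the WT libraries of days 4 and 6. The 8 fibroblast markers, which the feeder layer of the ES cell culture would carry, summed to 378 FPKM in WT and 411 in KO ES cells, to 70.0 and 73.2 at day 2, to 7.06 and 39.3 at day 4 and to 63.2 and 146 at day 6. All 8 of them were higher in KO than in WT EBs of day 4 (median log2 ratio 2.71, from 1.33 for *Twist1* to 4.58 for *Lum*) and 4 of 8 at day 6 (*Col1a2* highest at 1.78, *Twist1* lowest at 0.10), and none of the 8 was at 0 in any of these libraries. At day 4, 5 of the 8 (*Col3a1*, *Thy1*, *Postn*, *Dcn* and *Lum*) were above 1 FPKM in the KO library alone. The 8 markers of simple epithelium, each of which was also expressed in WT ES cells (from 6.83 FPKM for *Grhl2* to 156 FPKM for *Epcam*), were all higher in KO on both days, with sums of 148 FPKM in WT and 886 in KO at day 4 and of 333 and 1688 at day 6. Their ratios ran from 1.78 for *Epcam* to 3.22 for *Cldn4* at day 4 and from 1.17 for *Epcam* to 3.22 for *Krt8* at day 6. *Grhl2* was above 1 FPKM in the KO library alone on both days. Of 9 germ cell genes 8 were higher at day 4 (median 1.81, *Tfap2c* highest at 3.66, *Sycp3* lowest at 0.67) and 3 at day 6 (median 0.84, *Rhox9* highest at 2.23, *Sycp3* lowest at -0.10). At day 4 *Nanos3* and *Dazl* were above 1 FPKM in the KO library alone. *Prdm14* and *Dppa3* themselves also mark germ cells. The part of these other cell types in the levels of the naive genes was not tested.

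Lists of other fates were less uniform. Trophectoderm genes were higher in KO for 3 of 3 tested at day 4 and 4 of 5 at day 6, led by *Hand1* on both days, and their sum was 7.76 and 32.4 FPKM in the KO libraries. *Cdx2* on both days and *Hand1* at day 4 were above 1 FPKM in the KO library alone. Primitive endoderm genes had 2 of 7 higher and 1 lower at day 4 and 2 of 7 higher at day 6, with *Pdgfra* highest on both days (1.91 and 1.65) and *Lama1* lowest (-1.11 and -0.06). *Pdgfra* at day 4 was above 1 FPKM in the KO library alone. Of the steroid hormone genes, which give *Nr0b1* its other setting in the adrenal and gonad, none of 5 was above 1 FPKM at day 4 and *Cyp11a1* alone was higher in KO at day 6. *Cyp11a1* was then above 1 FPKM in the KO library alone. Endothelial genes were mostly under 1 FPKM, with *Pecam1* higher (2.60) and *Egfl7* lower (-1.06) of 2 tested at day 4 and 2 of 3 higher at day 6, of which *Cdh5* was above 1 FPKM in the KO library alone. Of the epidermis genes *Krt10* alone was tested, and it was lower on both days (-1.11 and -1.34). At day 4 it was above 1 FPKM in the WT library alone. Neural genes went the other way: 5 of 7 tested were lower in KO at day 4 (median -2.07, *Olig2* lowest at -3.68 and *Mnx1* highest at 1.11) and 8 of 8 at day 6 (median -3.45, *Neurog2* lowest at -7.66 and *Sox1* highest at -1.17). At day 6 *Neurog2* and *Isl1* were above 1 FPKM in the WT library alone. The 6 cell division genes stayed within 2-fold at both days, from -0.95 for *Pcna* to -0.11 for *Top2a* at day 4 and from -0.06 for *Pcna* to 0.24 for *Mcm5* at day 6.

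**Figure D4:**
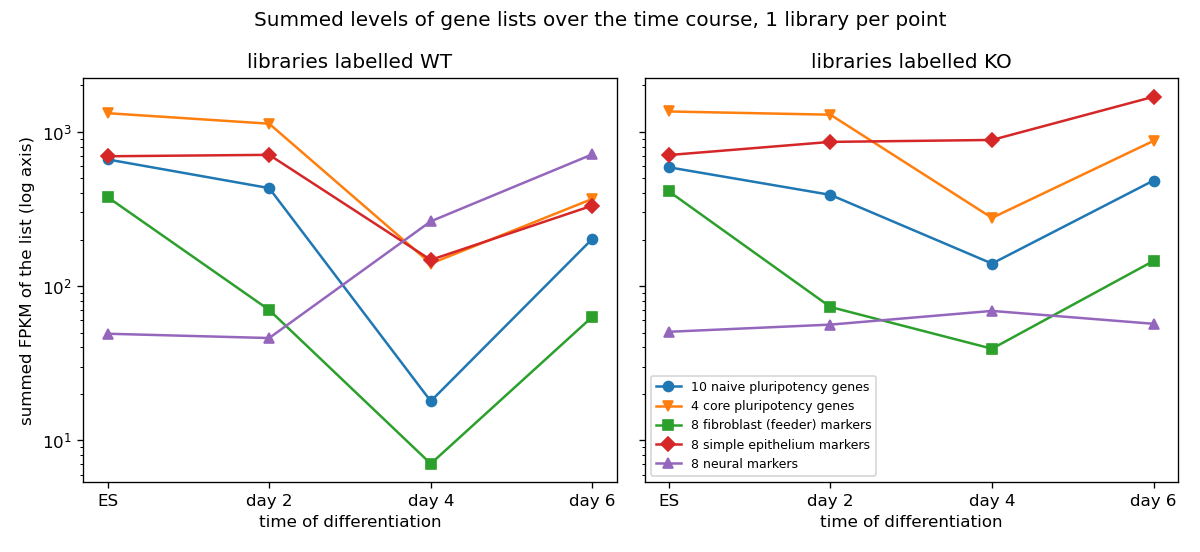
Summed FPKM (log axis) of 5 gene lists in ES cells and EBs of day 2, 4 and 6, with libraries labelled WT on the left and those labelled KO on the right. The naive genes and the fibroblast markers both have their lowest sum at day 4 under either label (17.9 and 7.06 FPKM in WT, 140 and 39.3 in KO). The summed level of the neural markers reaches 715 FPKM in WT and lies between 50.6 and 69.0 FPKM in KO. *Tubb3* adds much to it in the KO libraries and in WT at day 6.

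Over the 8 culture libraries the levels of the 10 genes were positively correlated, some pairs more than others. Pearson's r of log2(FPKM + 1) between 2 members ran from 0.47 for *Prdm14* and *Dppa3* to 0.96 for *Klf5* and *Esrrb*, with a median of 0.84 over the 45 pairs. These are descriptions over 8 points that share their libraries and, within a day, their normalization. No r was computed between pairs of other genes to set beside them. *Esrrb* was nearest to the mean profile of the 10 (r = 0.996, itself included in the mean) and *Dppa3* farthest (0.81). Among 8254 other genes above 10 FPKM in at least 1 culture library, those with the profile most like the mean of the 10 were *Dppa5a* (r = 0.99), *Ooep*, *Etv4*, *Dock6*, *AU018091*, *Septin1*, *S100a10* and *Col3a1* (0.99). *Dppa5a*, an RNA-binding protein gene of ES cells, was at 3744 FPKM in WT ES cells, 77.8 at day 4 and 1026 at day 6. *Col3a1*, a collagen gene, is one of the fibroblast markers above, with 37.0, 0.776 and 9.61 FPKM in the same libraries. Pearson's r does not measure the size of a change, and *Dock6* went only from 13.9 FPKM in WT ES cells to 6.96 at day 4.

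The nearest gene to each single member was *Fam178b* for *Klf2*, *Prrx1* for *Klf4*, *Rps6ka1* for *Klf5*, *Ooep* for *Esrrb*, *Fblim1* for *Tfcp2l1*, *Tcf15* for *Zfp42*, *Sbds* for *Nr0b1*, *Arpc1b* for *Tbx3*, *Myadm* for *Prdm14* and *Gm10324* for *Dppa3*. Their r lay between 0.96 for *Prdm14* and 0.995 for *Esrrb* and *Klf5*. No member shared its nearest gene with another. A near profile can go with a far smaller change: from WT ES cells to day 4 *Sbds* went from 56.8 to 29.9 FPKM and *Nr0b1* from 40.6 to 0.619.

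In newborn spinal column the 3 Krüppel factor genes had the highest levels of the 10. *Klf2*, *Klf4* and *Klf5*, which also serve in blood vessels and epithelia, were at 21.4, 14.8 and 9.62 FPKM in WT spinal column and at 27.1, 18.3 and 10.5 FPKM in KO spinal column. *Esrrb* (2.12 and 1.73 FPKM) and *Tbx3* (2.13 and 1.56 FPKM) were lower. *Tfcp2l1* was at 0.256 and 0.0431 FPKM, and *Zfp42*, *Nr0b1* and *Dppa3* were at 0.0134, 0.0619 and 0.139 FPKM in WT and listed at 0 in KO. *Prdm14* was listed at 0 in both libraries. Thus 5 members were tested between KO and WT spinal column, and none passed 2-fold, where 9.00% of all genes were higher and 8.47% lower. Their log2 ratios lay between -0.44 for *Tbx3* and 0.34 for *Klf2*, with a median of 0.13. With both libraries scaled to the same sum of FPKM the median turned to -0.49 and *Tbx3* was called lower (-1.06), while 396 of all genes were then higher and 3870 lower in place of 1255 and 1180, so that no direction can be given for the members here.

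The column libraries differed in epidermis markers, of which 6 summed to 747 FPKM in KO and 8.07 FPKM in WT. *Klf4* and *Klf5* are known to be expressed in epidermis, and the part of these markers in their levels was not tested. None of the 9 endothelial markers (endothelium being a known site of *Klf2*) passed 2-fold. FPKM summed over all loci was 519726 in WT and 761155 in KO column.

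Spinal cord of WT mice held less of all 10 genes than WT ES cells, which were listed in the same table with values 1.09 times those in the ES cell table. *Klf2* was highest in cord, at 7.91 FPKM or 10.3% of ES cells, followed by *Klf5* at 4.87, *Esrrb* at 4.04 and *Klf4* at 2.65 FPKM. *Tbx3* (0.965), *Nr0b1* (0.400), *Tfcp2l1* (0.266) and *Prdm14* (0.0334 FPKM) were not above 1 FPKM, and *Zfp42* and *Dppa3* were listed at 0. All 10 were called lower than in ES cells, as were 35.7% of all genes. *Esrrb* was above 1 FPKM in all 3 tissue libraries, and *Tfcp2l1*, *Zfp42*, *Nr0b1*, *Prdm14* and *Dppa3* were above it in none. Of the 5 members tested between WT column and WT cord, 3 (*Klf2*, *Klf4* and *Tbx3*) were more than 2-fold higher in column (17.2% of all genes). *Tbx3*, not above 1 FPKM in cord, entered this comparison through column. The authors scaled column and cord apart from each other.

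**Figure D5:**
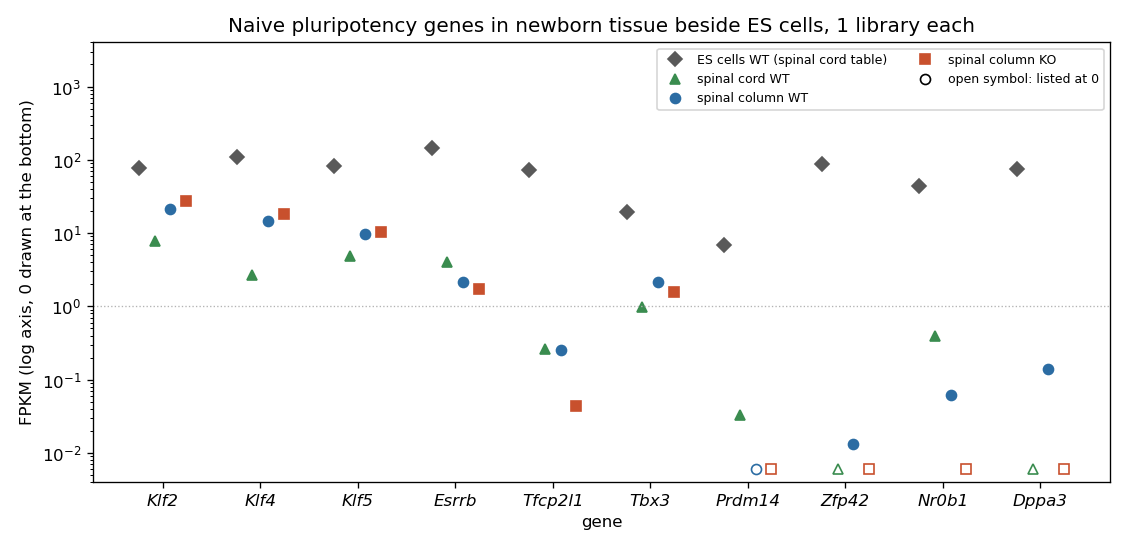
FPKM (log axis) of the 10 naive pluripotency genes in WT ES cells as listed in the spinal cord table, WT spinal cord, and WT and KO spinal column, with open symbols at the bottom for values listed at 0 and a dotted line at 1 FPKM. *Klf2*, *Klf4*, *Klf5* and *Esrrb* stay above 1 FPKM in every tissue library, and *Zfp42*, *Nr0b1*, *Dppa3*, *Prdm14* and *Tfcp2l1* stay below it.

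In WT EBs of day 8, TAF9B was found at the TSS of 2 of the 10 genes (20.8% of 21246 genes) and POL2 at none (33.7%), a peak being counted when its midpoint lay within 500 bp of a TSS in GENCODE. The *Tbx3* peak (score 92.7) was centred 2 bp before its TSS and the *Klf5* peak (score 122.74) 104.5 bp before it, both above the median score of 83.26 of the 10415 TAF9B peaks. Away from the TSS and up to 50 kb, 3 of the 10 genes were nearest to a TAF9B peak (15.7% of genes). In *Klf4* a peak of score 261.6, higher than 96.4% of TAF9B peaks, lay 1.37 kb downstream of the nearest TSS in the coding exon printed above, and a weaker one (79.58) lay 16.9 kb downstream and overlapped a POL2 peak. *Esrrb* had a peak in an intron 22.9 kb from the nearest TSS (score 72.68) and another, touching an exon, 5.42 kb from one (81.44), and *Prdm14* had one 48.8 kb away (107.93). None of these peaks except the distant one of *Klf4* overlapped POL2.

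*Klf2*, *Tfcp2l1*, *Zfp42*, *Nr0b1* and *Dppa3* had no TAF9B peak within 50 kb, the nearest midpoint being 78.7 kb from *Klf2*. At day 6 in WT EBs *Klf2* and *Zfp42* were the members with the highest RNA level, at 60.3 and 49.2 FPKM, and neither had a POL2 peak at its TSS in the EBs of day 8. The RNA and ChIP samples came from different lines and days. Peaks were made by the authors from 1 sample per antibody, and the control antibody was not analysed here.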

How the data were processed

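Poly-A RNA of 11 libraries, 1 per condition, was given in 6 tables of 23152 loci. The authors mapped reads to RefSeq genes with TopHat and computed FPKM with Cuffdiff, and these deposited FPKM values were used without further normalization. The deposited score of each ChIP peak is that of MACS, made by the authors after mapping with Bowtie to mm9, the build that the submitters' processing notes name. Tool versions are not given in the sources used here. Columns with the authors' own fold changes and p-values were not used.

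Accessions were matched to symbols through RefSeq (22766 of 23152 loci, 22471 symbols), keeping for each symbol the locus with the highest mean. Ratios used no pseudocount, and loci that Cuffdiff marked HIDATA or FAIL were left out. A value of 0 gave no ratio but ranked last in medians. Log2(FPKM + 1) was used for likeness only. The counting of calls was tested on simulated data. Depth is unknown, so no interval could be given, and with 1 library per condition no test was made.

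The members and the 14 other gene lists were chosen with earlier results of these data known. The genes named are the 10 members, *Taf9b*, the 4 core factors, in each other list the highest and lowest ratio of KO over WT at days 4 and 6 and genes past 2-fold on both days, the 8 genes nearest to the mean profile and the 1 nearest to each member. Other list genes named with values (*Stat3*, *Lifr*, *Id1*, *Id3*, *Fgf5*, *Otx2*) were chosen after their values were seen. TSS positions came from GENCODE vM1 (mm9). Alternatives changed the pseudocount, the filter, the scaling, the fold, the handling of loci and the peak windows. Python 3.11.15, numpy 2.4.6, pandas 2.3.3 and matplotlib 3.10.9 were used.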

Additional observations from a re-analysis of the deposited data

Results flagged for a closer look

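In 3 genes the KO library was more than 1.5-fold below the WT library of one pair and more than 1.5-fold above it in another. Over all genes tested in at least 2 of the 5 pairs, 1318 of 13118 did so, and over the 4 culture pairs, where the 3 members lie, 365 of 12508 (2.92%). The difference between the pairs was not tested, since each rests on 1 library per label. For *Klf4* the log2 ratio KO over WT was -0.94 at day 2, 1.60 at day 4 and 1.99 at day 6, so that it differed by 2.54 between days 2 and 4 and by 2.93 between days 2 and 6. For *Zfp42* it was -0.90 in ES cells, -0.95 at day 2 and 1.68 at day 4, a difference of 2.58 from ES cells and of 2.63 from day 2. For *Prdm14* it was -0.63 at day 2, 2.67 at day 4 and 1.25 at day 6, a difference of 3.30 between days 2 and 4 and of 1.88 between days 2 and 6. With 1 FPKM added to both values the day 2 log2 ratio of *Prdm14* was -0.39, within 1.5-fold. At day 4 *Klf4* and *Prdm14* were not above 1 FPKM in the WT library.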

How the results depend on the processing

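Of the 143 alternative counts of members, 134 stayed within 1.5 times the reported count. The shares of all genes were not counted again with the other fold limits, filters and peak windows. With a limit of 1.5-fold, 1 member instead of 0 was lower in KO ES cells, 3 instead of 0 in KO EBs of day 2 and 6 instead of 3 in KO EBs of day 2 against ES cells. Requiring more than 1 FPKM in both libraries left 6 of 6 tested members higher in KO at day 4, 6 of 6 lower in WT EBs of day 4 than in ES cells and 4 of 4 lower in spinal cord against ES cells. Without a filter on low values, 4 members were lower in KO spinal column, all of them below 1 FPKM. With each library scaled to the same sum of FPKM, 1 member was lower in KO spinal column and 5 were lower in KO EBs of day 2 than in ES cells. That scaling moved the median log2 ratio of all genes in spinal column to -0.57 and that of the 5 members tested to -0.49. Among all genes called in spinal column, the share that was higher went from 51.5% to 9.28% with it. In comparisons with ES cells this share went from 39.1% to 16.9% in WT and from 41.2% to 19.4% in KO at day 2, from 52.0% to 40.2% in WT at day 4, from 60.5% to 37.6% in WT and from 63.9% to 42.2% in KO at day 6, and from 45.9% to 62.7% in spinal cord. Between EBs of day 6 and ES cells, unscaled, the median of all genes was already 0.20 in WT and 0.15 in KO. Of 452 recomputed log2 ratios of single members, 423 stayed within 1.5-fold of the reported one, none called ratio reversed, and 16 of the 29 that moved did so with 1 FPKM added to both values, which draws low values together. No paired analysis was possible because each comparison here sets 1 library against 1 and the labels give no replicate numbers, so no replicate could be left out either. A fit over the 4 culture pairs with the day as a block would treat days as replicates of 1 effect and was not run. Neither the spread between cultures or animals nor the depth of the libraries is known.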
